A study of Mus musculus with 4 samples.

Results

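The regions described here are hubs of PGC-1alpha peaks, defined as runs of at least 5 peaks on mouse build mm9 in which no gap between neighbours exceeds 10 kb. Peaks of each chromosome were sorted by start and chained whenever the next start lay at most 10000 bp beyond the previous end, and chromosome Y was left out. This rule found 98 hubs with 649 peaks, of 7512 peaks in the whole list and 7485 outside chromosome Y. The members were chosen by the peak positions themselves. All values below therefore describe 1 list of positions, and no test is given.

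The list comes from chromatin immunoprecipitation with sequencing (ChIP-seq) in C2C12 myotubes, contractile cells formed by fusion of a cloned mouse myoblast line. Cells were grown in 10% fetal bovine serum to 90% confluence and kept in 2% horse serum for 72 h. They were then exposed to an adenovirus that carries Flag-tagged PGC-1alpha. According to the labels, this holds for all 4 samples: 2 precipitations with a monoclonal anti-Flag antibody, and 2 whole cell extracts, taken without an antibody as background. The labels do not tie the replicates to separate cultures. PGC-1alpha was thus tagged and supplied from a virus, and no sample used the anti-Flag antibody on cells lacking the tag. Recruitment of PGC-1alpha and background binding of the antibody cannot be told apart here, so a peak is a candidate site.

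PGC-1alpha is a coactivator that drives mitochondrial biogenesis and oxidative metabolism in skeletal muscle, where exercise raises its activity. It has no DNA-binding domain of its own and is brought to chromatin by transcription factors such as estrogen-related receptors, and AP-1, the Fos and Jun dimer named in the study title. Coactivators are known to gather at promoters and at groups of neighbouring enhancers that act on the same gene, which is why the size and layout of dense runs of peaks are of interest.

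The deposited list holds positions only, without heights, scores or values per replicate, and the read depth behind a peak is unknown. Every peak is 200 bp wide, and starts on each chromosome lie on a grid of 25 bp. Spacing can therefore be read to 25 bp, and a broad region of signal reported as several peaks cannot be told apart from several separate sites. Genes and sequences at the hubs were not analysed here, because the gene tables at hand describe another build.

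The hubs were few and took up little of the chromosomes. They made up 8.67% of the peaks outside chromosome Y, against 35.0% in the 1087 chains of 2 to 4 peaks and 56.4% in the 4218 peaks that stood alone. Together they spanned 1445 kb, which is 0.0571% of the span of peaks on a chromosome, summed over 20 chromosomes. Of the 98 hubs, 39 had exactly 5 peaks, 21 had 6, 17 had 7, and 21 had 8 or more. The 21 largest contained 209 peaks, and the highest number in a hub was 17.

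Hub length ran from 2.60 to 52.5 kb, with a median of 12.3 kb and quartiles of 8.97 and 19.1 kb. Median length was 3.35 kb for chains of 2 to 4 peaks and 8.34 kb for chains of exactly 4. A chain gains length with each added peak, so hubs are longer largely by the rule. Larger hubs were longer, while their spacing stayed about the same. Median length was 9.85 kb for hubs of 5 peaks, 14.4 kb for 6, 12.7 kb for 7, 19.3 kb for 8 or 9, and 29.2 kb for 10 to 17. The mean distance between successive starts had medians of 2413, 2845, 2083, 2539 and 2398 bp in the same 5 classes. Over the 98 hubs, Spearman's rho was 0.56 between number of peaks and length, and 0.0051 between number of peaks and that mean distance. Both numbers of a hub come from the same positions, so these coefficients are descriptions.

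**Figure D1:**
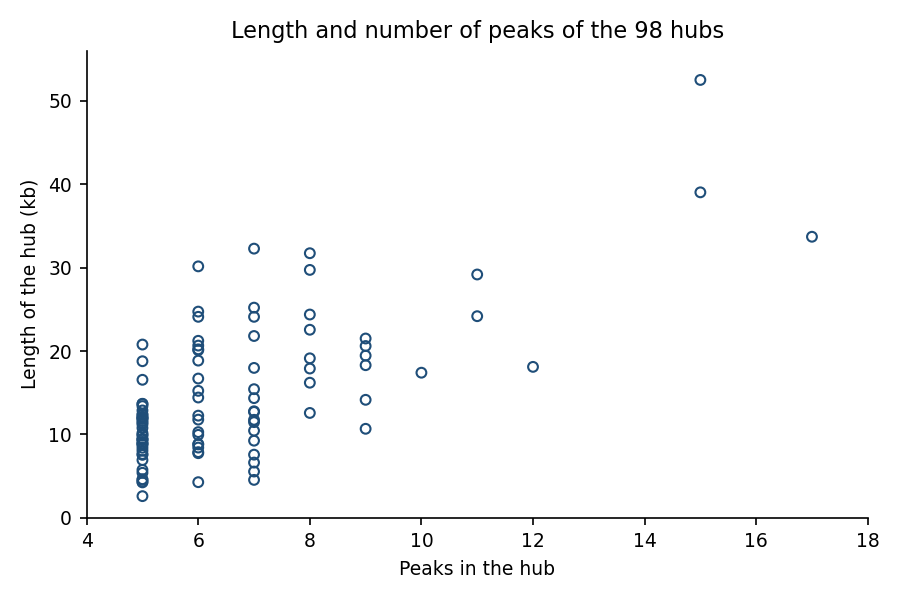
Length in kb (y axis) against the number of peaks (x axis) for the 98 hubs, 1 circle per hub. Hubs of 5 peaks lie between 2.60 and 20.8 kb, and the longest hub, at 52.5 kb, has 15 peaks.

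Peaks covered a median of 9.81% of a hub's length, with a range of 3.98 to 38.5%. The median was 14.2% for chains of 2 to 4 peaks and 9.60% for chains of exactly 4. Every chain begins and ends with a peak, so at equal spacing this share falls as peaks are added. The tightest hub lay on chromosome 1, from 137077676 to 137080275, where 5 peaks fell within 2.60 kb at a mean step of 600 bp and gaps of 275, 600, 500 and 225 bp. On chromosome 6, from 125112124 to 125116673, 7 peaks fell within 4.55 kb at a mean step of 725 bp. Its narrowest gap was 25 bp, the smallest that the grid allows between separate peaks. The next tightest were 6 peaks within 4.28 kb on chromosome 13 from 92013643 to 92017917, at a mean step of 815 bp, and 7 peaks within 5.55 kb on chromosome 5 from 120790925 to 120796474, at 892 bp. A hub of 5 peaks within 4.25 kb on chromosome 19, from 40503787 to 40508036, had a mean step of 1013 bp. These 5 tightest hubs had 5 to 7 peaks, and 4 of them had at most 1 other peak within 100 kb. The exception was the hub on chromosome 19, with 6. At the other extreme, the highest mean step was 5990 bp, in a hub of 6 peaks spread over 30.2 kb.

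The 551 gaps inside hubs, measured from the end of a peak to the start of the next, had a median of 1475 bp and quartiles of 725 and 3250 bp. In chains of 2 to 4 peaks the 1531 gaps had a median of 1800 bp and quartiles of 775 and 4250 bp. Short gaps were about as common in both: gaps of at most 500 bp made up 3.09% (up to 200 bp) and 12.2% (200 to 500 bp) in hubs, and 3.14% and 12.9% in the smaller chains. The curves parted above that size. Gaps of 500 to 2000 bp took larger shares in hubs, 21.8% (500 to 1000 bp) and 23.0% (1000 to 2000 bp), against 17.2% and 19.6%. Gaps of 5 to 10 kb took 14.0% in hubs and 20.1% in smaller chains. The ratio of the medians was 0.819, and it was not stable: with chains built at gaps of at most 5 kb it rose to 1.01. By chain size the medians were 1925 bp for 2 peaks, 1613 bp for 3, 1938 bp for 4, 1475 bp for 5 to 7 and 1513 bp for 8 or more, which is no steady decline.

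**Figure D2:**
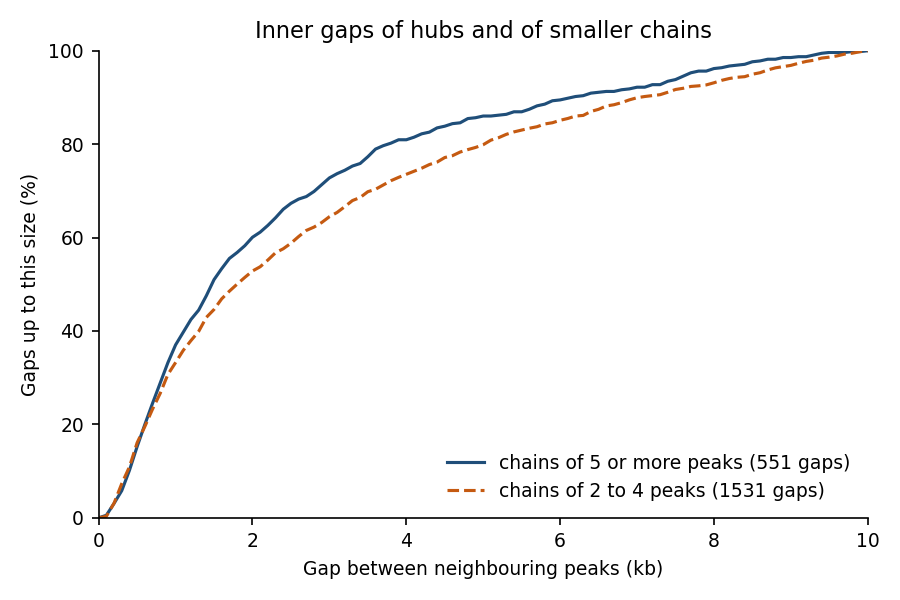
Cumulative share of gaps (y axis, %) up to a given size (x axis, kb) inside hubs (solid line, 551 gaps) and inside chains of 2 to 4 peaks (dashed line, 1531 gaps). The lines run together for the shortest gaps and then part, with medians of 1475 and 1800 bp; both end at 10 kb by the chaining rule.

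Within hubs the peaks were unevenly spaced. The coefficient of variation of the steps between starts (their SD divided by their mean) had a median of 0.771 over the 98 hubs, with quartiles of 0.586 and 0.948. It was under 0.5 in 20 hubs and over 1 in 19. The widest gap of a hub took a median of 38.5% of its length, between 14.8 and 66.1%. It exceeded 50% of the length in 19 hubs, which had 5 to 7 peaks, nearly all of them exactly 5. Such a share tends to fall as gaps are added, so the number of hubs over 50% also depends on hub size. The widest gap was the outermost gap on either side in 44 of 98 hubs. Since 196 of the 551 hub gaps were outermost, much of this count is set by hub size. Outer gaps had a median of 1588 bp (196 gaps) and the gaps between them a median of 1475 bp (355 gaps).

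The most even hub was on chromosome 10, from 79562503 to 79573277, with 5 peaks, gaps of 1700, 2350, 3375 and 2350 bp and a coefficient of variation of 0.262. Next came 7 peaks on chromosome 18 from 9503139 to 9509763, in 6.63 kb, with gaps between 425 and 1325 bp and a coefficient of 0.272. The hub of 7 peaks on chromosome 5 from 120790925 to 120796474, already described as tight, had gaps of 300 to 1000 bp and a coefficient of 0.278. The opposite case was the hub of 10 peaks on chromosome 19 from 5832062 to 5849461, which reached the highest coefficient of all, 1.32. A single gap of 8075 bp, 46.4% of its length, divided it into a run of 6 peaks and a run of 4, in which gaps had a range of 200 to 2900 bp.

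The 10 hubs with the most peaks differed in layout; among equals the shorter hub was taken. Of 6 hubs with 9 peaks, the 3 shortest are among the 10, and those left out lay on chromosomes 1, 14 and 11 and were 19.45, 20.6 and 21.5 kb long. The 17 peaks on chromosome 14 from 61548773 to 61582472 were spread over 33.7 kb with gaps of 475 to 5000 bp. No gap took more than 14.8% of the length, the lowest such share of any hub. This hub also had the most gaps, and such a share tends to fall as gaps are added. Its coefficient of variation, 0.620, lay between the quartiles of all hubs. The hub was still a single chain of 17 when gaps were limited to 5 kb. The 15 peaks on chromosome 13 from 73819593 to 73872092 formed the longest hub, 52.5 kb. It mixed short and long gaps: 6 measured 375 to 1200 bp, and 4 measured 6325 to 8825 bp. The 15 peaks on chromosome 12 from 88138845 to 88177869 took 39.0 kb, with gaps from 225 to 7575 bp.

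On chromosome 8, 12 peaks lay from 124658131 to 124676230 at a mean step of 1627 bp, with no gap over 3900 bp. On chromosome 1, the 11 peaks between 92131176 and 92155350 took 24.2 kb, with gaps of 450 to 6275 bp. The 11 peaks on chromosome 14 from 26324873 to 26354047 had their widest gaps, 7175 and 5825 bp, towards the ends, and gaps of 200 to 2325 bp among 7 peaks between. Chromosome 2 had 9 peaks from 167198779 to 167209453 at a mean step of 1309 bp, and peaks covered 16.9% of that hub. The 9 peaks on chromosome 15 from 41699210 to 41713359 were among the more regular, with gaps of 850 to 2500 bp and a coefficient of variation of 0.310. The 9 peaks on chromosome 12 from 25832595 to 25850894 included a lone peak at the proximal end, 7625 bp from the next.

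**Figure D3:**
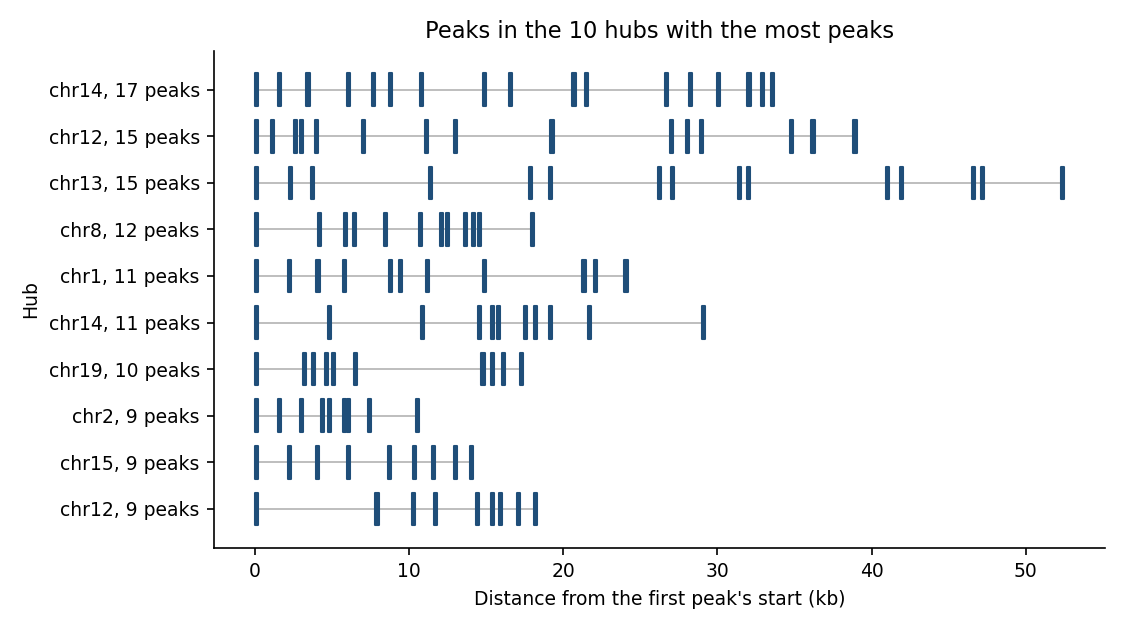
Layout of the 10 hubs with the most peaks, 1 row per hub labelled by chromosome and number of peaks; bars of 200 bp mark peaks by their distance in kb from the first peak's start (x axis). The hub on chromosome 19 shows its single gap of 8075 bp, and the longest row, on chromosome 13, reaches 52.5 kb.

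Membership depends on the limits of the rule. There were 96 chains of exactly 4 peaks (384 peaks), just outside, and 39 of exactly 5 (195 peaks), just inside. Chains of 4 had a median length of 8.34 kb and a median gap of 1938 bp, and chains of 5 had 9.85 kb and 1475 bp. The nearest other peak lay at most 15 kb away in 18 of the 96 chains of 4, the closest at 11.2 kb. Among hub gaps, 8 exceeded 9 kb, up to 9925 bp, and the nearest peak outside any hub lay at 10.1 kb.

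Changing the gap limit split hubs or extended them. A hub stays whole under a narrower limit only if its widest gap is within that limit. The counts below therefore restate the gaps, and no smaller chains are set beside them. With gaps limited to 5 kb, 45 of the 98 hubs stayed whole and 65 still had a run of 5 or more. With 2 kb, 10 stayed whole and 22 had such a run. With 1 kb, 3 stayed whole, and the median hub fell into 4 pieces. Counting each of those pieces as 1 site, 43 of the 98 hubs still had 5 or more sites, and 55 had fewer. Widening the gap to 20 kb added other peaks to 24 hubs and joined only 2 hubs with each other, while 48 chains of 5 or more arose that had no hub peak. With 100 kb, 75 hubs had gained other peaks and 16 were joined to another hub.

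Outside their own edges, hubs as a class had denser surroundings than smaller chains, but the 39 hubs of exactly 5 peaks had the same median number of peaks around them as the smaller chains. A hub had a median of 3 other peaks within 100 kb of its edges (quartiles 1 and 5.75, range 0 to 15), against a median of 1 (quartiles 0 and 3) for chains of 2 to 4 and of 1 (quartiles 0 and 2) for single peaks. No other peak lay within 100 kb in 21 of 98 hubs (21.4%), 327 of 1087 smaller chains (30.1%) and 1932 of 4218 single peaks (45.8%). The nearest outside peak was at a median of 31.9 kb for hubs, 50.6 kb for smaller chains and 83.8 kb for single peaks. Hubs of exactly 5 peaks had a median of 1 other peak, and 13 of the 39 (33.3%) had none within 100 kb. Chains of exactly 4 peaks, just outside the rule, had a median of 2 other peaks, 20.8% with none and 34.4 kb to the nearest.

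The difference was not greatest at the edge itself. Between 10 and 20 kb from the edges, 1.95 peaks per 100 kb were found around hubs, 1.76 around smaller chains and 0.932 around single peaks. Hubs and smaller chains differed most between 20 and 50 kb, where 2.68 peaks per 100 kb were found around hubs, 1.36 around smaller chains and 0.872 around single peaks. Between 100 and 200 kb the densities were 1.02, 0.786 and 0.584, and between 500 and 1000 kb they were 0.584, 0.492 and 0.434. Part of the density near hubs came from other hubs: without peaks that belong to a hub, the band of 20 to 50 kb gave 1.79 around hubs and 1.12 around smaller chains. These flanks overlap where chains are neighbours, so a peak can count more than once.

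**Figure D4:**
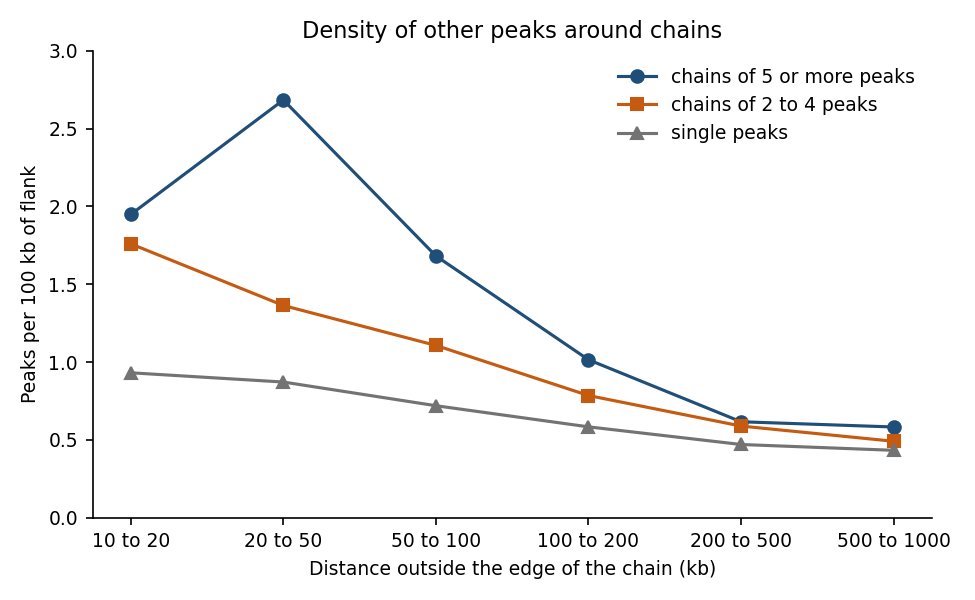
Peaks per 100 kb of flank (y axis) in 6 distance bands outside the chain edge (x axis, kb) for hubs (circles), chains of 2 to 4 peaks (squares) and single peaks (triangles). Hubs lead in each band, by little between 10 and 20 kb (1.95 against 1.76 for smaller chains) and by most between 20 and 50 kb (2.68 against 1.36), and the 3 lines approach each other beyond 200 kb.

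Larger hubs tended to have more peaks around them, but the largest did not stand out. The hub of 17 peaks had 3 others within 100 kb, and the hubs of 15 had 6 and 5. The median number within 100 kb was 1 for hubs of 5 peaks, 2 for 6, 4 for 7, 5 for 8 or 9, and 6 for 10 to 17. Each of the 21 hubs of 8 or more peaks had at least 1, whereas 21 of the 77 hubs of 5 to 7 peaks had none. Spearman's rho over the 98 hubs was 0.40 within 100 kb and 0.12 within 1 Mb. The points share chromosomes and, where hubs are neighbours, each other's peaks.

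The hubs with the most peaks around them were a hub of 9 on chromosome 14 from 26287198 to 26307797, with 15 others within 100 kb, and a hub of 7 on chromosome 19 from 5734562 to 5759761, with 14. For both, a larger hub within 100 kb supplied most of that number, 11 peaks on chromosome 14 and 10 on chromosome 19. On chromosome 19 that hub was 72.3 kb away, with 3 other peaks in between. Next, with 12 each, came the hub of 11 on chromosome 14 beside the hub of 9, and a hub of 8 on chromosome 8 from 129362931 to 129380830, whose nearest hub was 2007 kb away. The most solitary hub was that on chromosome X, from 13014947 to 13039046, the only hub of that chromosome. It had 7 peaks in 24.1 kb, no other peak within 1 Mb, and its nearest neighbours at 1485 and 2495 kb. A hub of 5 on chromosome 1 from 43307226 to 43320100 had its nearest peak 670.5 kb away, and a hub of 5 on chromosome 2 from 93741054 to 93751228 had it 437.6 kb away.

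Some hubs lay near another hub, but most did not. Of the 98, 32 (32.7%) had another hub within 1 Mb, while a hub lay within 1 Mb of 188 of the 1087 smaller chains (17.3%) and of 541 of the 4218 single peaks (12.8%). Among smaller chains the share was 14.7% for 2 peaks, 22.2% for 3 and 24.0% for 4. Among hubs it was 33.3% for 5 peaks, 23.8% for 6, 41.2% for 7 and 33.3% for 8 or more. Chains of 4 thus came close to hubs of 6. With hubs of at least 6 peaks, 23.7% had another such hub within 1 Mb, and with at least 4 peaks, 42.8%. The share was 21.5% with gaps of at most 5 kb and 35.9% with gaps of at most 20 kb. With peaks within 1 kb counted once it was 18.6%. The next chain beside a hub was itself a hub on 12 of 195 sides (6.15%), against 42 of 2165 sides (1.94%) of smaller chains. Each pair of neighbouring hubs is counted from both hubs in the first number. Over the 97 hubs that shared a chromosome with another, the nearest was at a median of 4.48 Mb, with quartiles of 0.496 and 15.02 Mb. The 32 hubs formed 13 groups of 2 and 2 groups of 3.

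The closest pair was on chromosome 14, where hubs of 9 and 11 peaks were 17.1 kb apart, so that 20 peaks lay within 66.9 kb between 26287198 and 26354047. On chromosome 15, hubs of 9 and 8 peaks were 22.6 kb apart, with 17 peaks in 49.3 kb from 41699210 to 41748534. Also on chromosome 15, hubs of 5 and 7 peaks were 22.9 kb apart between 77693410 and 77744609. No peak lay between the hubs in any of these 3 pairs. With gaps of up to 20 kb, the pair on chromosome 14 became 1 chain of 20 peaks.

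The densest group of 3 was at the distal end of chromosome 8, from 124658131 to 125186280, where hubs of 12, 5 and 6 peaks lay within 528.2 kb and 31 peaks were found in all. The other, on chromosome 15 from 76827635 to 77744609, had hubs of 5, 5 and 7 peaks in 917.0 kb and 23 peaks in all, and it includes the pair of 5 and 7 just described. Looser groups of 2 were found on chromosome 19 from 5734562 to 5849461 (hubs of 7 and 10 peaks in 114.9 kb) and from 47442287 to 47503661 (5 and 5 in 61.4 kb). Further groups lay on chromosome 6 from 126425724 to 126535423 (7 and 8 peaks, 109.7 kb), chromosome 3 from 101304453 to 101382152 (5 and 5, 77.7 kb) and chromosome 7 from 53657323 to 53871247 (6 and 5, 213.9 kb). The remaining 6 groups of 2 were 247.3 to 972.7 kb long.

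Every one of the 20 chromosomes examined had a hub, between 1 on chromosome X and 10 on chromosome 4, with a median of 4. Chromosome 6 had 9 hubs, chromosomes 1, 5, 15 and 19 had 8 each, and chromosome 8 had 7. The 6 chromosomes with 8 or more hubs carried 51 of 98 hubs (52.0%), against 34.9% of the peaks, 35.2% of the smaller chains and 31.2% of the summed span. They were picked by their number of hubs, so a higher share of hubs is built into this comparison. The planned count of 5 such chromosomes cuts a tie at 8 hubs and gave 43.9% of hubs and 31.4% of peaks. Chromosome 19, with the highest density at 1.38 hubs per 10 Mb of span, had 18.6% of its own peaks in hubs. The corresponding shares were 15.2% on chromosome 14, 13.7% on chromosome 6 and 12.4% on chromosome 15.

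Chromosomes with many peaks did not always have many hubs. Chromosome 2 had the most peaks, 555, and 4 hubs with 4.68% of them. Chromosome 10 had 480 peaks and only 2 hubs with 2.08%, the lowest share, although 38.1% of its peaks were in chains of 2 to 4. Chromosome 11 was similar, with 42.8% of 463 peaks in smaller chains and 5.40% in hubs. Chromosome 14 went the other way: 27.5% of its 316 peaks were in smaller chains, and its 5 hubs had 48 peaks. Relative to 100 smaller chains there were 21.1 hubs on chromosome 19 and 2.74 on chromosome 10. Chromosome X is not comparable, with 4 smaller chains and 1 hub.

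**Figure D5:**
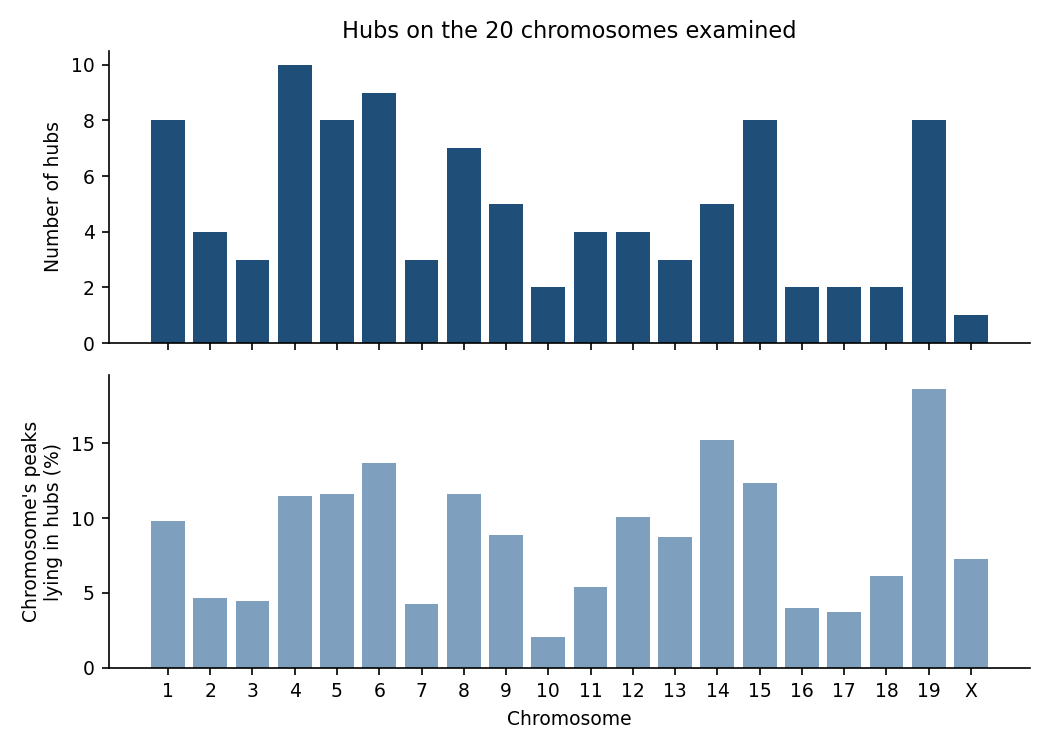
Number of hubs (upper bars) and share of the chromosome's peaks that lie in hubs (lower bars, %) for chromosomes 1 to 19 and X. Chromosome 4 has the most hubs, 10, chromosome 19 the highest share, 18.6%, and chromosome 10 the lowest, 2.08%.

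On the chromosomes outside the layout plot, the hub with the most peaks (the shortest where several tied) had 5 to 9 peaks. Chromosome 3 had 7 peaks from 88424753 to 88434002, in 9.25 kb, with gaps of 775 to 1800 bp and no other peak within 100 kb. Hubs of 8 peaks led on chromosome 4 (129976713 to 130001087, 24.4 kb), chromosome 5 (91702825 to 91732549, 29.7 kb) and chromosome 9 (63549086 to 63580810, 31.7 kb). These last 3 were loose, with mean steps of 3454, 4218 and 4504 bp. On chromosome 6, 3 hubs had 8 peaks, and the shortest, between 108620974 and 108637173, took 16.2 kb. Only 2 others lay within 1 Mb of it, both within 100 kb. The 9 peaks on chromosome 11 from 3393296 to 3414795 were the first peaks of that chromosome in the list, in 21.5 kb, so their proximal flank could not be described.

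Hubs of 6 peaks led on chromosome 7 (53657323 to 53676172, 18.9 kb), chromosome 16 (84776676 to 84791100, 14.4 kb) and chromosome 17 (46163374 to 46173648, 10.3 kb). Both hubs on chromosome 10 had 5 peaks, and the shorter measured 5.40 kb, from 52895903 to 52901302. Their mean steps were 3730, 2845, 2015 and 1300 bp in the same order.

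Hubs lay more often towards the distal end of the autosomes, the end away from the centromere in the numbering of mouse chromosomes. Of 97 autosomal hubs, 70 (72.2%) had their centre in the distal 50% of the span from the first to the last peak, against 619 of 1083 smaller chains (57.2%) and 2268 of 4138 single peaks (54.8%). If hubs had followed the smaller chains of their own chromosome, the share would have been 58.9%. The share was 77.6% for hubs of 5 to 7 peaks and 52.4% for those of 8 or more. On chromosome 4, 9 of 10 hubs were distal, on chromosome 6, 8 of 9, on chromosome 5, 7 of 8, and on chromosome 8, 6 of 7. Smaller chains of these chromosomes were also often distal, at 67.5, 69.4, 57.4 and 73.7% in the same order. On chromosome 15, 75% of hubs and 75.9% of smaller chains were distal. On chromosome 17, 0 of 2 hubs were (31.5% of smaller chains), and on chromosome 14, 2 of 5 (41.7%). The hub share exceeded that of smaller chains on 13 of 19 autosomes. Without chromosome 4, 70.1% of autosomal hubs were distal. With peaks within 1 kb counted once, the share among the fewer hubs left was 61.9%, nearer to the 58.9% given above. The share of smaller chains under that setting was not computed.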

How the data were processed

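The authors deposited 1 list of peak positions for 4 samples, with 3 columns and no counts, scores or samples. Bowtie 0.12.7 and build mm9 are named in the submitters' processing notes. Which program called peaks, at which thresholds, and how replicates were combined is not given in the sources. Positions are printed 1-based. Chaining (gap of at most 10000 bp), gaps, lengths and flank counts were computed with Python 3.11.15 and numpy 2.4.6, rank correlations with scipy 1.17.1. The code was tested on simulated data: chain sizes, gaps and flank counts were recovered in 20 of 20 lists. Depth per sample is unknown, so no interval is given. Hubs were named by number of peaks (overall and per chromosome), tightness, length, evenness, surroundings and closest pairs; the looser groups, and hubs cited as extremes, were picked with their values in view. The members and all lists were chosen with earlier results of these data known. Chromosome Y was left out; its 27 peaks include a chain of 26. Alternatives concerned the gap, the smallest hub, chromosome Y, close peaks and the chromosome with the most hubs.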

Additional observations from a re-analysis of the deposited data

How the results depend on the processing

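Of 72 values recomputed under 8 alternatives, 57 kept their direction and size (within 1.5 times, or for shares within the 95% exact binomial interval). That interval treats hubs as separate draws, although neighbours count together and alternatives reuse hubs, so it only sets a limit of size. Measuring start to start, keeping chromosome Y or leaving out chromosome 4 changed the list little, and every value held. The 14 values that moved and the 1 that reversed came from changing the gap limit, the smallest hub or close peaks. With gaps of at most 5 kb there were 65 hubs with 411 peaks, 21.5% of them within 1 Mb of another, and the ratio of median gaps turned from 0.819 to 1.01. With 20 kb there were 988 peaks in hubs of median length 21.5 kb. A minimum of 4 peaks gave 194 hubs with 1033 peaks, and of 6 peaks 59 hubs. Counting peaks within 1 kb once gave 43 hubs with 265 sites, a median length of 19.1 kb, a median gap of 2563 bp, 18.6% near another hub and, on autosomes, 61.9% distal. Fewer or more chains qualify by construction. The distal share and its alternatives were added after the data were seen. No paired analysis was possible because peaks carry no value for single replicates, which also prevents leaving a replicate out. Read depth, and with it the number of sites missed, is unknown.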
